A study of Mus musculus with 40 samples.

Results

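Regulatory T cells (Treg) of the liver were set against Treg of the blood, to see how cells in the organ differ from circulating ones and whether they differ in anything beyond transcripts of hepatocytes. The comparison takes the 3 Treg libraries labelled liver and the 3 labelled blood, 6 of the 40 libraries of the series, chosen by their labels alone. All 6 libraries come from wild-type (WT) mice that were perfused before the tissue was digested, and each was made from 2000 CD4+ cells, sorted by a Thy1.1 reporter that marks Foxp3 expression. The mice's age and sex, and which libraries share an animal, are not given in the sources used here. SD, SE and p-values therefore measure the spread between samples, which may be technical. In fits of all 30 Treg libraries or all 40 libraries, SE and p-values draw on the spread within every Treg source. They are thus not a measure of the spread within liver and blood alone. The p-values of the fit of the 6 libraries alone rest on the spread within liver and blood Treg. The liver Treg libraries carry the replicate numbers 1, 3 and 4 and the blood Treg libraries 2, 4 and 5. Conventional CD4+ T cells (Tconv, reporter-negative) gave 1 library from liver and 1 from blood, and Treg of 8 other sources, spleen among them, gave 3 libraries each. RNA was counted at 3′ ends of polyadenylated transcripts, with total counts of 19114441 to 25242492 in the 6 libraries and of 12197980 to 28823493 in the series.

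Treg are CD4+ T cells that depend on the transcription factor Foxp3 and restrain other immune cells. Resting Treg circulate between blood and lymphoid organs, guided by receptors such as S1pr1 under the control of Klf2 and Tcf7, whereas effector Treg carry receptors for inflammatory chemokines and integrins that hold them in tissues. In the liver, Cxcr6 with its ligand Cxcl16 on sinusoidal endothelium and Cxcr3 with its interferon-induced ligands are known to hold and attract T cells. The organ's blood passes slowly through the sinusoids, so that cells of the vessels and cells of the tissue lie close together.

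The 6 libraries fitted their label as Treg. Foxp3 (mm10 chromosome X, 7573644 to 7595245) had 234, 302 and 210 CPM (counts scaled by library total and TMM factor) in liver Treg and 246, 232 and 283 CPM in blood Treg, against 0.373 CPM in liver Tconv and 0.685 CPM in blood Tconv. The T cell genes Cd3e and Cd4 lay between 683 and 1074 CPM in all 6. Of the CD8 and NK markers, Cd8a was at or below 0.552 CPM and Ncr1 at or below 0.932 CPM. Cd8b1 was present, with 28.4, 22.3 and 40.3 CPM in liver Treg and 38.7, 32.2 and 27.1 CPM in blood Treg. The liver and blood Treg ranges of Foxp3 overlapped (log2 fold change -0.03 ± 0.26 SE, edgeR adjusted p = 1). By the Euclidean distance between log2 CPM profiles of the 500 genes that varied most, each of the 6 libraries had a library of its own source as its nearest neighbour. The mean distance was 21.8 between liver libraries and 17.3 between blood libraries, against 28.9 between liver and blood, 29.5 between liver and spleen and 31.8 between blood and spleen.

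Liver Treg differed from blood Treg in a small set of genes, every one of them higher in the liver. Of 17909 genes tested with edgeR's quasi-likelihood test over all 30 Treg libraries, 19 rose (0.106%, Benjamini-Hochberg adjusted p below 0.05) and 0 fell (0.0%), while 946 higher (5.28%) and 391 lower ones (2.18%) had an unadjusted p below 0.05. Among the 19 were Parpbp, Serpina3g, Cxcr3, Jdp2, Pdcd1, Utf1, Metrnl, Egr3, Tigit, Cxcr6, Acot7, Ccna2, Trf, Ccr8, March3, Aplp1, Bcat1 and Ube2c. In all 19 every liver Treg library lay above every blood Treg library, which held for 9.01% of all genes tested, and 7.71% lay below. A fit of the 6 libraries alone called 160 genes higher (1.21% of 13182 tested) and 24 lower (0.182%), together 1.4%, with 13 of the 19 among them. DESeq2 called 223 genes higher (1.25%) and 44 lower (0.246%), together 1.49%, and limma-voom with quality weights 315 and 113. The count of 19 depended on single libraries: without liver replicate 1, liver replicate 4, blood replicate 4 or blood replicate 5 only Parpbp passed, without liver replicate 3 Parpbp, Serpina3g and Cxcr3 passed, and without blood replicate 2 the calls came to 24 higher and 1 lower, with 12 of the 19 among them.

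Cxcr6, Ccr2 and Itgb7, 2 chemokine receptors and an integrin chain known on tissue T cells, each had all 3 liver libraries above all 3 blood libraries, and Cxcr6 passed the test. Cxcr6, the receptor for Cxcl16 (mm10 chromosome 9, 123806475 to 123811760), had 109, 98.2 and 134 CPM in liver Treg, against 16.2, 12.4 and 11.1 CPM in blood Treg. The groups were far apart and Cxcr6 rose by 3.11 ± 0.60 (log2 fold change ± SE, edgeR adjusted p = 0.0391, and 0.000576 in the fit of the 6 libraries alone). With any 1 of the 6 libraries left out, the edgeR adjusted p of Cxcr6 was 0.07 to 0.376. Ccr2, the receptor for Ccl2 (chromosome 9, 124101950 to 124113557), had 262, 259 and 248 CPM in liver Treg, against 112, 55.0 and 52.3 CPM in blood Treg. The liver values were close together, and the blood library of replicate 2 stood above the other two of its group. The log2 fold change of Ccr2 was 1.82 ± 0.45, with an edgeR adjusted p of 0.127 over the 30 libraries, 0.0138 over the 6 libraries alone and 0.0059 in DESeq2. Itgb7, the integrin beta chain that pairs with Itga4 or Itgae (chromosome 15, 102215995 to 102231944), had 2990, 2723 and 3768 CPM in liver Treg, against 2475, 2134 and 1992 CPM in blood Treg. Every liver value lay above every blood value, and the log2 fold change was 0.53 ± 0.18 (edgeR adjusted p = 0.401, 0.170 over the 6 libraries alone). Among the 10 Treg sources, liver stood first for Itgb7 and blood second, liver second for Ccr2 after the intraepithelial lymphocytes (IEL), and liver sixth for Cxcr6 with blood last.

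The promoters of 3 genes are shown as examples. Cxcr6 is the marker that passed and Jdp2 the called gene with most motif matches. Gc is the only gene of the hepatocyte list with an HNF1 match, and was picked for it. Each window holds 250 bases before and 50 after an annotated start (RefSeq, GRCm38.p6), 5′ to 3′ on the gene's strand, in lower case with motif matches in capitals. The motifs searched on both strands were TGACTCA (AP-1), TCACACC (T-box), CCACACCC (KLF) and the HNF1 motif, and the matches shown do not overlap each other.
Cxcr6, chr9:123806227-123806526, plus strand: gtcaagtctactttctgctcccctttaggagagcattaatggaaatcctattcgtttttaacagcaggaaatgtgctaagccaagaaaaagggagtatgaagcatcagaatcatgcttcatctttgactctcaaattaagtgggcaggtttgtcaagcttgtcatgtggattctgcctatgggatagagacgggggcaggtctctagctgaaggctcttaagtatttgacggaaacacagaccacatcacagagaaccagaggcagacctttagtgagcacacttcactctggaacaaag
Jdp2, chr12:85599166-85599465, plus strand: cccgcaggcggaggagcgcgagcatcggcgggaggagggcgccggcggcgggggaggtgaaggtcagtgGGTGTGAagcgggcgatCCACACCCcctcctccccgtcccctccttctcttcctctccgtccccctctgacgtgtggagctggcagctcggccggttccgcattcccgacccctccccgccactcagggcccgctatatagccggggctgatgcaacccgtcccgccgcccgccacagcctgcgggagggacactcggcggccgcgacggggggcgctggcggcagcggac
Gc, chr5:89457849-89458148, minus strand: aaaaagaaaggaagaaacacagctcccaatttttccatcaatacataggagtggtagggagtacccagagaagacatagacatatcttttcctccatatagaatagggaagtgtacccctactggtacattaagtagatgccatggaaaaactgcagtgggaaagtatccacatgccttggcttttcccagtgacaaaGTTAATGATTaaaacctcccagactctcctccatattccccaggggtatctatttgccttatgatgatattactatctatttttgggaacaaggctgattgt
The Cxcr6 window held none of the 4 motifs. The Jdp2 window, 1 of 3 annotated for the gene, held a T-box match from base 70, read on the other strand, and a KLF match from base 87, and the Gc window held an HNF1 match from base 199, counted from 1 at the window's first base. Of the 19 called genes 14 had a window, and AP-1 was found in 0 of the 14, T-box in 1 (Jdp2), KLF in 2 (Bcat1 and Jdp2) and HNF1 in 0. The 14 genes had 17 windows, and the shares of these with a match were 0.0%, 5.88%, 11.8% and 0.0% in the same order. Of the 44 hepatocyte genes tested 31 had a window, with 33 windows together. The shares of these with a match were 18.2%, 0.0%, 0.0% and 3.03% in the same order. Over all 32851 windows the shares were 5.2%, 3.98%, 3.56% and 0.399%.

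The called genes held receptors for chemokines, inhibitory receptors and cell cycle genes. Cxcr3, the receptor for Cxcl9 and Cxcl10, had 297, 215 and 457 CPM in liver Treg, against 91.5, 69.1 and 52.2 CPM in blood Treg. Its ranges did not meet, and it rose by 2.20 ± 0.39 (log2, edgeR adjusted p = 0.0353). Ccr8, a receptor typical of effector Treg in tissues, had 23.9, 17.6 and 29.7 CPM in liver Treg, against 7.95, 5.08 and 3.38 CPM in blood Treg, and rose by 2.13 ± 0.42 (edgeR adjusted p = 0.0391). Pdcd1, which encodes the inhibitory receptor PD-1, had 86.3, 124 and 108 CPM in liver Treg, against 31.8, 26.0 and 20.2 CPM in blood Treg, a log2 fold change of 2.03 ± 0.37 (edgeR adjusted p = 0.0353). Both genes were several-fold apart between the groups, with the highest blood value in replicate 2. Tigit, an inhibitory receptor that binds the poliovirus receptor, had 73.5, 81.7 and 103 CPM in liver Treg, against 27.8, 17.3 and 16.3 CPM in blood Treg (log2 fold change 2.08 ± 0.40, edgeR adjusted p = 0.0391). Blood replicate 2 gave the highest blood value for 15 of the 19 genes.

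Metrnl, a secreted meteorin-like protein, had 20.8, 14.3 and 21.3 CPM in liver Treg, against 2.54, 1.05 and 0.763 CPM in blood Treg, and rose by 3.71 ± 0.69 (edgeR adjusted p = 0.0353). Serpina3g, an intracellular inhibitor of cathepsins in activated T cells, had 209, 147 and 265 CPM in liver Treg, against 41.4, 27.8 and 24.1 CPM in blood Treg, and rose by 2.75 ± 0.47 (edgeR adjusted p = 0.0353). Reads of Serpina3g can also match its close paralogs, so its value is uncertain. Parpbp, a binding partner of PARP1, had 0.759, 3.34 and 2.10 CPM in liver Treg and no count in any blood Treg library, at least 41.4-fold higher against a floor of 3 counts over the blood group (edgeR adjusted p = 0.00164). Of the transcription factors, Egr3, induced by antigen receptor signals, had 3.63, 4.61 and 7.27 CPM in liver Treg, against 0.442, 0 and 0.715 CPM in blood Treg. Jdp2, a repressor of AP-1, had 2.91, 4.47 and 2.91 CPM in liver Treg, against 0.221, 0.237 and 0.524 CPM in blood Treg. Egr3 (log2 fold change 3.74 ± 0.70) and Jdp2 (3.36 ± 0.60) passed in edgeR with an adjusted p of 0.0353 each but not in the fit of the 6 libraries alone, at 0.111 and 0.0596. Acot7, a thioesterase of long-chain acyl-CoA, had 126, 155 and 168 CPM in liver Treg, against 78.8, 35.8 and 40.8 CPM in blood Treg, and rose by 1.54 ± 0.30 (edgeR adjusted p = 0.0391).

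**Figure D1:**
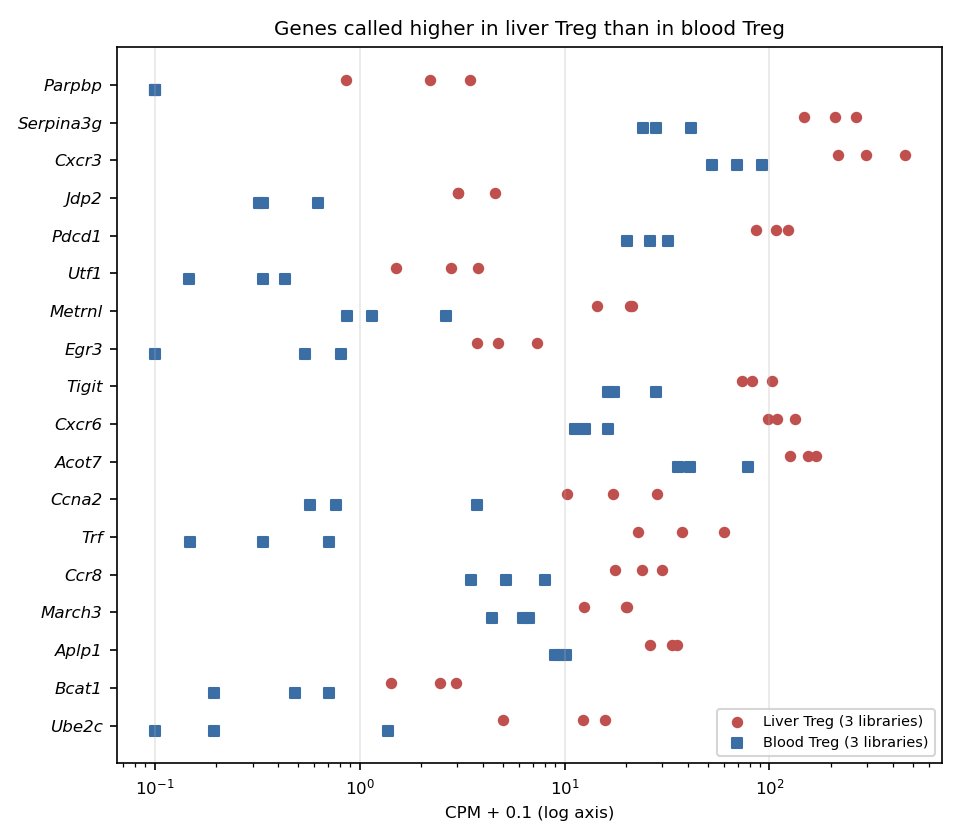
CPM + 0.1 on a log axis of 18 of the 19 genes called higher, ordered by p, with a point for each of 3 liver Treg and 3 blood Treg libraries. In every row the liver points lie to the right of the blood points; Parpbp has all 3 blood libraries at 0 CPM.

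Across the 10 Treg sources, blood was the lowest for all 19 genes, and liver was the highest for 0 of them. Blood was the lowest of the 10 for 9.98% of all genes tested; because these genes were chosen for being lower in blood than in liver, the count is a description. Liver ranked among the first 3 sources for 4 of the 19 and among the last 4 for 9. Over all 17909 genes tested these counts were 4569 and 6867. Cxcr3 had a mean of 323 CPM in liver, 71.9 CPM in Peyer's patch, 172 CPM in spleen and 365 CPM in kidney Treg, and its liver range of 215 to 457 CPM lay inside the kidney range of 120 to 528 CPM. Ccr8 had 23.7 CPM in liver, between 66.1 CPM in spleen and 758 CPM in kidney Treg in the 8 other sources, and 5.47 CPM in blood. Pdcd1 had 106 CPM in liver, 160 CPM or more in the 8 other sources and 26.0 CPM in blood. In the same fit, liver Treg against spleen Treg gave log2 fold changes of -2.15 to 2.04 for the 19 genes, of which 0 passed as higher and 1 as lower (Bcat1, branched-chain aminotransferase, -2.14, edgeR adjusted p = 0.0205), beside 109 higher (0.609%) and 99 lower (0.553%) of all genes tested in that comparison, together 1.16%. The comparisons with blood and with spleen share the liver libraries.

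**Figure D2:**
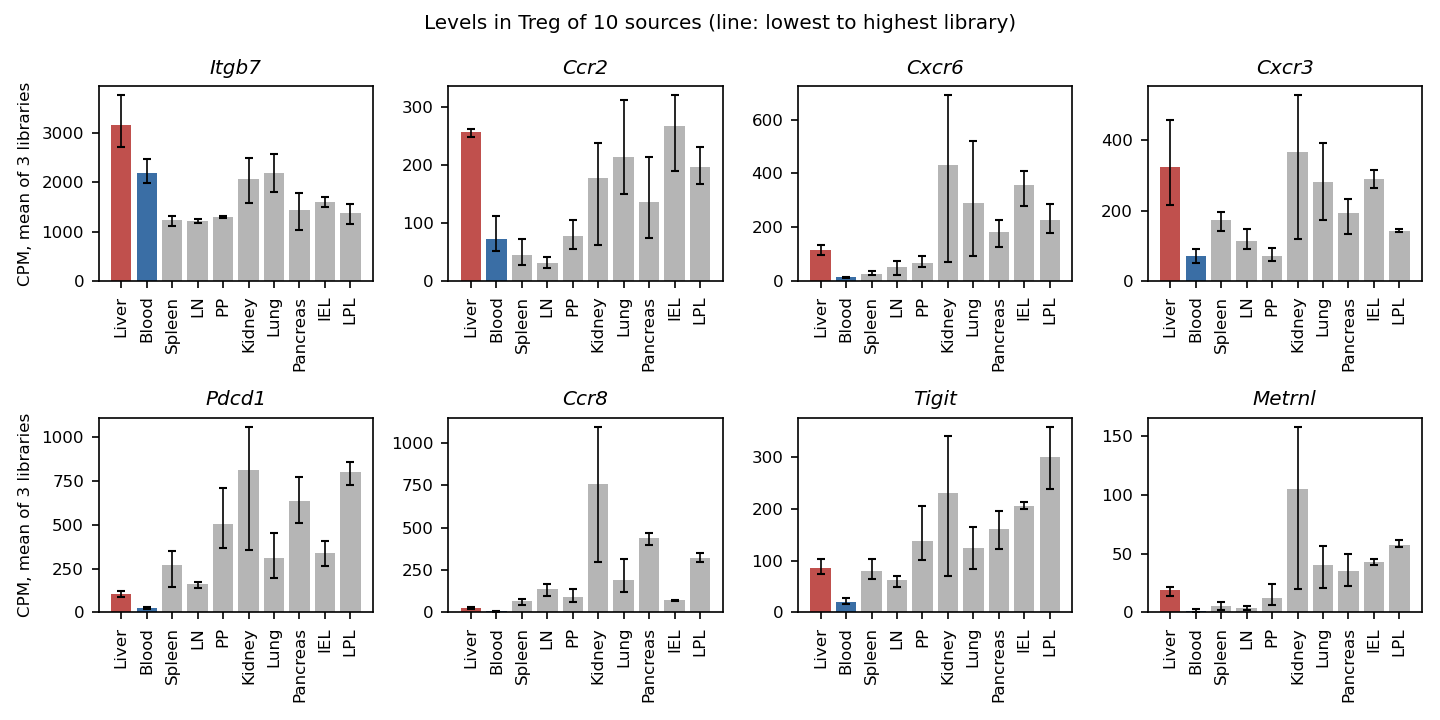
Mean CPM of 3 Treg libraries in each of 10 sources for 8 genes, with a line from the lowest to the highest library; liver is red, blood blue. Liver stands first for Itgb7 (3160 CPM) and second for Ccr2 (256 CPM), while Pdcd1 (106 CPM) and Ccr8 (23.7 CPM) in liver are below every source but blood.

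Some adhesion and homing genes had higher values in liver Treg than in both blood and spleen Treg. Gpr15, a homing receptor for the colon, had 82.4, 85.3 and 90.6 CPM in liver Treg, against 47.2, 22.0 and 21.8 CPM in blood Treg (log2 fold change 1.51 ± 0.39, edgeR adjusted p = 0.149, 0.039 over the 6 libraries alone), and was higher than in spleen by 1.69 (edgeR adjusted p = 0.0293). Itgae, the CD103 chain that binds E-cadherin with Itgb7, had 247, 327 and 361 CPM in liver Treg, against 180, 137 and 96.2 CPM in blood Treg. The ranges of Itgae did not meet, with a log2 fold change of 1.18 ± 0.25 against blood (edgeR adjusted p = 0.0541, 0.0422 over the 6 libraries alone) and of 1.12 against spleen (adjusted p = 0.0197). Against spleen, Ccr2 (2.48, edgeR adjusted p = 0.0067) and Itgb7 (1.35, edgeR adjusted p = 0.000437) were higher in liver as well, while Cxcr6 (2.04) had an adjusted p of 0.0801. The 160 genes called higher in the fit of the 6 libraries held 134 outside the lists of other cells. Liver was the highest of the 10 Treg sources for 14 of these, beside 1002 of all 17909 genes tested. Because the 134 were called for being higher in liver than in blood, the count is a description. Among the 14, singled out after their values were seen, were Carmil1, Fam129b, Fut7, Gpr15, Il18r1, Itgb1, Maged1 and Syt11, with Ces1d, Ces3a, F2, Mug1 and Pzp, which are known to be made by hepatocytes although the hepatocyte list did not name them. Fut7, the fucosyltransferase that makes selectin ligands, had a mean of 28.5 CPM in liver, 6.59 CPM in blood, 9.81 CPM in spleen and 24.5 CPM in lung Treg.

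Among the 23 lists of T cell and general programs, those of chemokine receptors, effector Treg genes, Th1 and cytotoxic genes and cell cycle genes had the highest medians. Over all genes tested the median log2 fold change was 0.0. Of 24 chemokine receptor genes tested, 3 rose (Ccr8, Cxcr3 and Cxcr6) and 0 fell, beside 0.106% higher of all genes tested, with a median of 1.23. In the fit of the 6 libraries alone 8 of 23 rose, beside 1.21% of all genes tested there. Ccr4, a receptor for Ccl17 and Ccl22, had 90.4, 91.8 and 96.2 CPM in liver Treg against 49.9, 33.6 and 18.9 CPM in blood Treg (log2 fold change 1.45 ± 0.35, edgeR adjusted p = 0.111). Of 32 tissue Treg effector genes, 4 rose (Ccr8, Metrnl, Pdcd1 and Tigit), 0 fell, and 26 had every liver library above every blood library, beside 0.106% called higher and 9.01% without overlap over all genes tested, with a median of 1.39. Fgl2, a secreted suppressor of dendritic cells, had 248, 239 and 117 CPM in liver Treg, against 44.4, 22.2 and 34.3 CPM in blood Treg (2.58 ± 0.54, edgeR adjusted p = 0.0541, 0.00793 over the 6 libraries alone). Over those 6, 14 of the 31 effector genes tested rose, beside 1.21% of all genes.

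Of 28 Th1 and cytotoxic genes, 1 rose (Cxcr3) and 0 fell, beside 0.106% higher of all genes tested. The median was 1.67, which was 1.45 with genes without a count in a group held at their bound. In the fit of the 6 libraries 10 of 24 rose, beside 1.21% of all genes. Tbx21, the T-bet factor that drives Cxcr3 in Th1-like Treg, had 55.4, 40.8 and 61.9 CPM in liver Treg, against 10.6, 2.80 and 7.91 CPM in blood Treg (2.90 ± 0.64, edgeR adjusted p = 0.0745, 0.0122 over the 6 libraries alone). The chemokine Ccl5 had 81.0, 39.7 and 83.0 CPM in liver Treg against 14.4, 10.1 and 13.3 CPM in blood Treg (2.44 ± 0.58, edgeR adjusted p = 0.109), and the granule gene Nkg7 57.8, 48.7 and 92.7 CPM in liver Treg against 20.3, 11.5 and 12.6 CPM in blood Treg. All 3 had liver ranges above the blood ranges. Of 37 cell cycle genes, 2 rose (Ccna2 and Ube2c) and 0 fell, beside 0.106% higher of all genes tested, with a median of 1.43. Ccna2, the cyclin of S phase and G2, had 10.2, 28.0 and 17.2 CPM in liver Treg, against 3.65, 0.475 and 0.667 CPM in blood Treg (3.54 ± 0.70, edgeR adjusted p = 0.0391). Cdk1, its kinase, had 7.72, 13.9 and 8.83 CPM in liver Treg, against 1.22, 0.808 and 1.001 CPM in blood Treg (3.33 ± 0.70, edgeR adjusted p = 0.0541). Liver replicate 3 was the highest library for both, and 22 of the 37 list members had every liver library above every blood library, beside 9.01% of all genes tested.

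Of the lists close to the effector state, residency genes had 1 of 27 higher (Cxcr6, median 0.34), TNF receptor and checkpoint genes 2 of 25 (Pdcd1 and Tigit, median 0.56), the Treg signature 1 of 25 (Tigit, median 0.52) and early response genes 1 of 33 (Egr3, median 0.64), with 0 lower in each. The integrin and adhesion list had 0 of 27 (median 0.43), S100, annexin and cytoskeletal genes 0 of 32 (0.64) and glycolysis 0 of 16 (0.51). Over all genes tested, 0.106% were called higher in this fit of 30 libraries. In the fit of the 6 libraries alone, 6 residency, 5 TNF receptor and checkpoint, 6 Treg signature, 3 early response, 5 adhesion, 7 S100 and cytoskeletal and 2 glycolysis genes rose, beside 1.21% of all genes tested in that fit. Among residency genes, Prdm1 (Blimp-1) had 81.0, 89.0 and 52.6 CPM in liver Treg, against 25.7, 19.8 and 17.6 CPM in blood Treg, and Bhlhe40 had 48.4, 39.8 and 39.5 CPM in liver Treg against 11.8, 9.69 and 6.67 CPM in blood Treg. Both had adjusted p above 0.05 over the 30 libraries (edgeR, 0.184 and 0.134) and below it over the 6 (0.00793 and 0.00743). Cd44, the hyaluronan receptor of activated T cells, had 230, 232 and 240 CPM in liver Treg, against 116, 104 and 84.1 CPM in blood Treg (1.21 ± 0.29, edgeR adjusted p = 0.109, 0.00793 over the 6 libraries alone). Every glycolysis member had a positive value, beside 8623 of all 17909 genes tested. The glycolytic enzyme Tpi1, for example, had 127, 109 and 184 CPM in liver Treg, against 77.4, 57.5 and 59.7 CPM in blood Treg (1.12 ± 0.28, edgeR adjusted p = 0.134, 0.0422 over the 6 libraries alone). Core Treg genes outside this pattern were Ctla4, with 250, 256 and 264 CPM in liver Treg and 235, 273 and 304 CPM in blood Treg, and the IL-2 receptor chain Il2ra, with 534, 608 and 341 CPM in liver Treg and 660, 672 and 656 CPM in blood Treg.

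**Figure D3:**
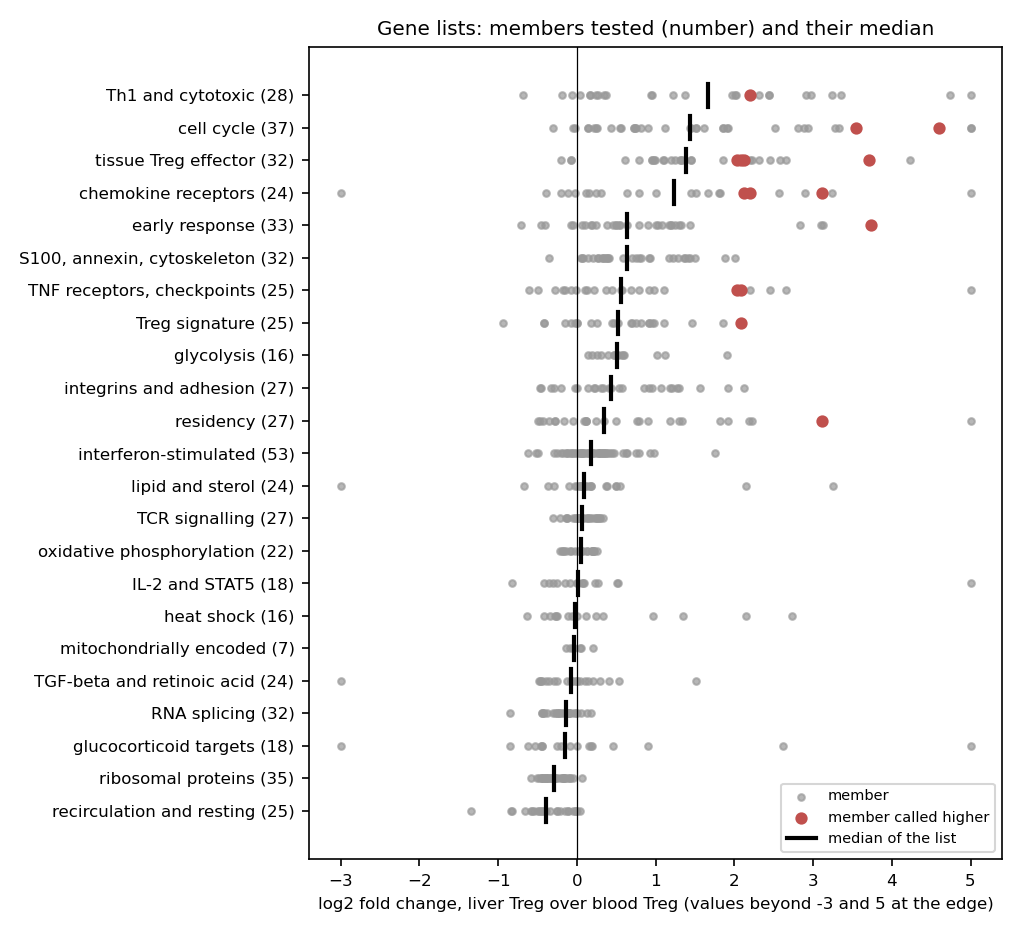
Log2 fold change of liver over blood Treg for each tested member of 23 gene lists (grey), members called higher (red) and the list median (black line); 12 member values beyond the axis are drawn at its edge. The Th1 and cytotoxic list has the highest median (1.67) and the recirculation and resting list the lowest (-0.39).

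Genes of recirculation and of the resting state lay on the other side, with no call in edgeR or DESeq2. Of 25 such genes, 0 rose and 0 fell in the edgeR fit of 30 libraries and in that of 6, and 0 had an unadjusted p below 0.05 in the first. DESeq2 called 0 too. Among the 5 members with the smallest edgeR p, limma-voom with quality weights gave Bach2, Dapl1 and Treml2 an adjusted p below 0.05 (0.0451, 0.0131 and 0.0357). Its adjusted p was 0.218 for Lef1 and 0.229 for Id3, and its values for the other members are not reported here. Over all genes tested, limma-voom called 113 of 17909 lower. The median was -0.39, 24 of the 25 had a negative value, and 15 had every liver library below every blood library, against 7.71% of all genes tested. Bach2, a repressor of effector genes, had 74.5, 97.9 and 62.0 CPM in liver Treg, against 110, 146 and 165 CPM in blood Treg (-0.84 ± 0.52, edgeR adjusted p = 0.791). Lef1, a factor of quiescent T cells, had 457, 491 and 413 CPM in liver Treg, against 563, 587 and 710 CPM in blood Treg (-0.45 ± 0.38, edgeR adjusted p = 0.968). Neither gene's ranges met. Myc, a driver of cell growth, had 229, 212 and 175 CPM in liver Treg, against 307, 319 and 381 CPM in blood Treg, and was 1 of the genes lower in the fit of the 6 libraries alone (-0.72, edgeR adjusted p = 0.0491; 0.321 over the 30 libraries). Ribosomal protein genes had a median of -0.29, with 34 of 35 negative and 0 called. Of all 17909 genes tested, 8623 had a positive value. The interferon-stimulated (0 of 53, median 0.18), T cell receptor signalling (0 of 27, 0.06), heat shock (0 of 16, -0.03), IL-2 and STAT5 (0 of 18, 0.01), oxidative phosphorylation (0 of 22, 0.05), lipid and sterol (0 of 24, 0.09), glucocorticoid (0 of 18, -0.15), TGF-beta and retinoic acid (0 of 24, -0.07), RNA splicing (0 of 32, -0.14) and mitochondrially encoded (0 of 7, -0.03) lists had medians near 0. Of the 53 interferon-stimulated genes, 38 had a positive value. In 14 of them every liver library lay above every blood library, beside 9.01% of all genes tested.

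Hepatocyte transcripts were present in the liver libraries at a low share. Genes of the hepatocyte list took 0.0485%, 0.0216% and 0.0489% of the counts in liver Treg, against 0.0110%, 0.0107% and 0.00909% in blood Treg (two-sided exact permutation p = 0.1, the smallest that 3 against 3 allows, and 0.24 adjusted over 12 lists). Most of the blood share came from Ass1 and Adh1. Without them the shares were 0.0372%, 0.0106% and 0.0341% in liver Treg, against 0.000476%, 0.000636% and 0.000451% in blood Treg. Leaving out such members, here and below, was chosen after the values were seen. Treg of other sources also held counts of the hepatocyte list. Their highest share was 0.0898%, in lamina propria replicate 1 and above every liver Treg library, and their median 0.0139%. Without Ass1 and Adh1 these were 0.0779% and 0.00584%. Albumin (Alb) had 56.5, 10.8 and 64.6 CPM in liver Treg and no count in blood Treg, at least 881-fold higher against the floor of 3 counts over the group, and Clec4f, a Kupffer cell gene, had 2.15, 1.67 and 4.85 CPM in liver Treg and no count in blood Treg. Liver replicate 3 was the lowest of the liver libraries for 36 of the 44 hepatocyte genes tested. In bulk samples, fewer cells of a type and less RNA per cell cannot be told apart. Of the hepatocyte list 1 of 44 genes rose over the 30 libraries and 23 of 32 over the 6 libraries alone. Over all genes tested, 0.106% rose over the 30 libraries and 1.21% over the 6. The 1 gene was Trf (transferrin), with 60.0, 22.7 and 37.4 CPM in liver Treg, against 0.608, 0.237 and 0.0477 CPM in blood Treg. Against spleen Treg the log2 fold change of Trf was 1.99 ± 1.02 (edgeR adjusted p = 0.389). Whether its counts came from hepatocytes was not tested. The median of the hepatocyte list was 7.83, which was 5.80 with genes without a count in a group at their bound. With the hepatocyte list removed before the fit, 18 genes were called and all 18 were among the 19. With all lists of other cells removed, 18 were called again, the same 18. Such a removal leaves the counts of all other genes unchanged, so it cannot show the part of other cells in the called genes. Of those 18, liver replicate 3 was the highest liver library for 6, replicate 4 for 10 and replicate 1 for 2. Liver replicate 4 also had the highest share of its counts in the predicted gene Gm26917, 4.67%, against 2.12% to 2.76% in the other liver libraries and 2.20% to 2.49% in blood Treg, and it was the only 1 of the 6 in which deviations of log2(CPM + 1) from a gene's mean over the 40 libraries went down with exon length (Spearman rho -0.277 across 9761 genes, against 0.0213 to 0.238 in the other 5). The part of these in the called genes was not tested beyond leaving the library out.

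Blood Treg carried genes of red cells and platelets instead. The full erythroid list took 0.00337% of the counts on average in liver Treg and 0.0125% in blood Treg. Without Bpgm and Slc25a37 the erythroid shares were 0.000099%, 0.000722% and 0.000128% in liver Treg, against 0.0185%, 0.00678% and 0.00435% in blood Treg. The full platelet list took 0.0217% on average in liver Treg and 0.0248% in blood Treg, with overlapping libraries. Pf4 and Ppbp, chemokines of platelet granules, had no count in liver Treg, against 0.608, 18.9 and 14.1 CPM of Pf4 and 1.55, 23.8 and 20.6 CPM of Ppbp in blood Treg, at least 234-fold and 320-fold lower in liver. Of the 24 genes lower in the fit of the 6 libraries, 12 belonged to these lists (4 erythroid and 8 platelet genes, where reads of the 2 alpha globin genes cannot be told apart with certainty). Among the other 12 were B230317F23Rik, Gng11, Gp6, Kmt2d, Mmrn1, Msh3, Myc, Ntn4, Sytl4, Utp14a and Vwf. At least Gp6, Mmrn1 and Vwf of these are platelet genes as well, and the rest were not sorted by cell of origin. These names were listed after their values were seen. B cell genes took 0.130%, 0.141% and 0.178% in liver Treg, against 0.254%, 0.0865% and 0.0784% in blood Treg, and the B cell antigen receptor gene Cd79a had 13.4, 9.81 and 19.8 CPM in liver Treg against 87.1, 11.7 and 8.63 CPM in blood Treg, so that blood replicate 2 stood apart. Plasma cell genes took 0.0168%, 0.0422% and 0.0206% in liver Treg, against 0.0157%, 0.0184% and 0.0185% in blood Treg, with Igha at 204 CPM in liver replicate 3 and at or below 1.35 CPM in the other 5 libraries. The neutrophil and monocyte list took 0.00448% on average in liver Treg and 0.00124% in blood Treg, and the cholangiocyte list 0.00148% and 0.000559%. Macrophage genes took 0.0403% on average in liver Treg and 0.0366% in blood Treg, mostly from Ctss, a protease gene at 317 to 396 CPM in all 6 libraries. Without Ctss the macrophage shares were 0.00693%, 0.00974% and 0.00454% in liver Treg, against 0.00287%, 0.000561% and 0.00309% in blood Treg, with no overlap. Stellate genes took 0.0320% on average in liver Treg and 0.0389% in blood Treg, mostly from Ecm1, and without Ecm1 the order turned, with 0.000349% in liver Treg and 0.000148% in blood Treg and overlapping libraries. Mean shares in liver Treg and blood Treg were 0.000234% and 0.000213% for liver endothelial, 0.00910% and 0.00885% for CD8, NK and innate lymphoid, and 0.0131% and 0.0127% for dendritic genes. The part of these cells in the called genes was not tested, since removal of their marker genes leaves the counts of all other genes unchanged.

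**Figure D4:**
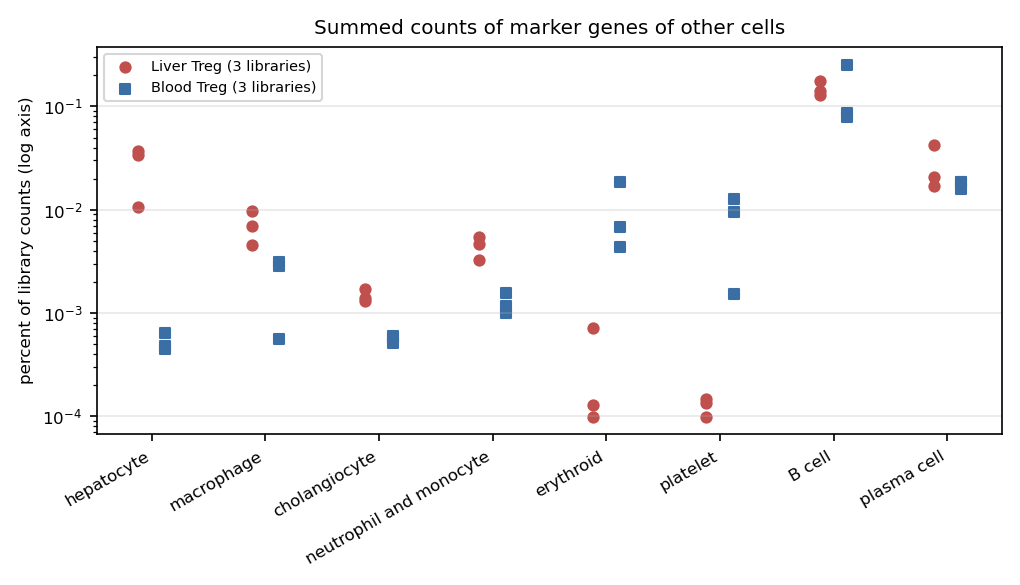
Summed counts of marker genes of other cells as a percent of library counts on a log axis, for 3 liver Treg (red) and 3 blood Treg (blue) libraries, leaving out Ass1 and Adh1 (hepatocyte), Ctss (macrophage), Bpgm and Slc25a37 (erythroid) and Itgb3 (platelet). Hepatocyte genes are at 0.0106% to 0.0372% in liver against at most 0.000636% in blood, and the erythroid and platelet genes drawn are higher in blood. With Itgb3 kept, the platelet shares of the 2 groups overlap.

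The direction of the called genes was the same in the lone Tconv libraries. All 19 genes had a higher CPM in the liver Tconv library than in the blood Tconv library, which held for 37.5% of all genes tested, and so did 140 of the 160 genes called in the fit of the 6 libraries (87.5%). Cxcr6 had 1701 CPM in liver Tconv and 20.6 CPM in blood Tconv. Cxcr3 had 456 CPM in liver Tconv and 37.6 CPM in blood Tconv, and Ccr2 had 392 CPM in liver Tconv and 14.8 CPM in blood Tconv. Pdcd1 had 49.2 CPM in liver Tconv and 11.3 CPM in blood Tconv. Itgb7 had 992 CPM in liver Tconv and 1224 CPM in blood Tconv, the other way round from Treg. The hepatocyte list without Ass1 and Adh1 took 0.00387% of the counts in liver Tconv and 0.000999% in blood Tconv, below every liver Treg library. Nkg7 had 898 CPM in liver Tconv and 16.5 CPM in blood Tconv, and Zbtb16 had 106 CPM and 0.386 CPM. The CD8, NK and innate lymphoid list took 0.0667% of the counts in liver Tconv and 0.0107% in blood Tconv. The part of cells other than conventional T cells in the Tconv differences was not tested. With 1 Tconv library per source these differences have no replicate check.

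The liver minus blood difference of Treg was also set against that of Tconv in 1 edgeR fit, which called 38 of 22976 genes (0.165%), 8 more positive (0.0348%) and 30 more negative (0.131%) in Treg, where the lone Tconv libraries were assumed to vary like the Treg replicates. With no replicate in either Tconv group, the p-values cannot tell a difference between the cell types from 1 library that stands apart. None of the 19 called genes was among the 38. Il2ra, with a mean of 494 CPM in liver Treg and 663 CPM in blood Treg, had 89.2 CPM in liver Tconv and 1.71 CPM in blood Tconv, a difference of -6.12 ± 0.55 on the log2 scale (edgeR adjusted p = 2.79e-07). Il2rb, the IL-2 receptor beta chain, had means of 1818 and 2023 CPM in liver and blood Treg and 2977 and 129 CPM in liver and blood Tconv (-4.68 ± 0.43, edgeR adjusted p = 2.79e-07). The ectonucleotidase gene Entpd1 (CD39) gave -5.02 ± 0.51, the receptor gene Cd160 -8.51 ± 0.84 and the cytokine signal inhibitor Socs2 -5.90 ± 0.67. In these 5 genes liver Tconv stood far above blood Tconv, while in Treg the liver mean was below the blood mean for Il2ra, Il2rb and Cd160, near it for Socs2 and above it for Entpd1. Fgl2 moved the same way in both cell types, with 819 CPM in liver Tconv and 0.386 CPM in blood Tconv, and by more in Tconv (-8.45 ± 1.39, edgeR adjusted p = 0.00407). On the other side, the kinase gene Matk had 56.2, 34.1 and 68.6 CPM in liver Treg, against 24.7, 23.9 and 23.7 CPM in blood Treg, and 6.27 CPM in liver Tconv against 30.1 CPM in blood Tconv (3.40 ± 0.66, edgeR adjusted p = 0.0198). The liver Tconv library also carried Tcrg-C1 at 87.9 CPM and the CD8, NK and innate lymphoid list at 0.0667%, against 0 CPM and 0.0107% in blood Tconv, and the part of such cells in these differences was not tested.

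**Figure D5:**
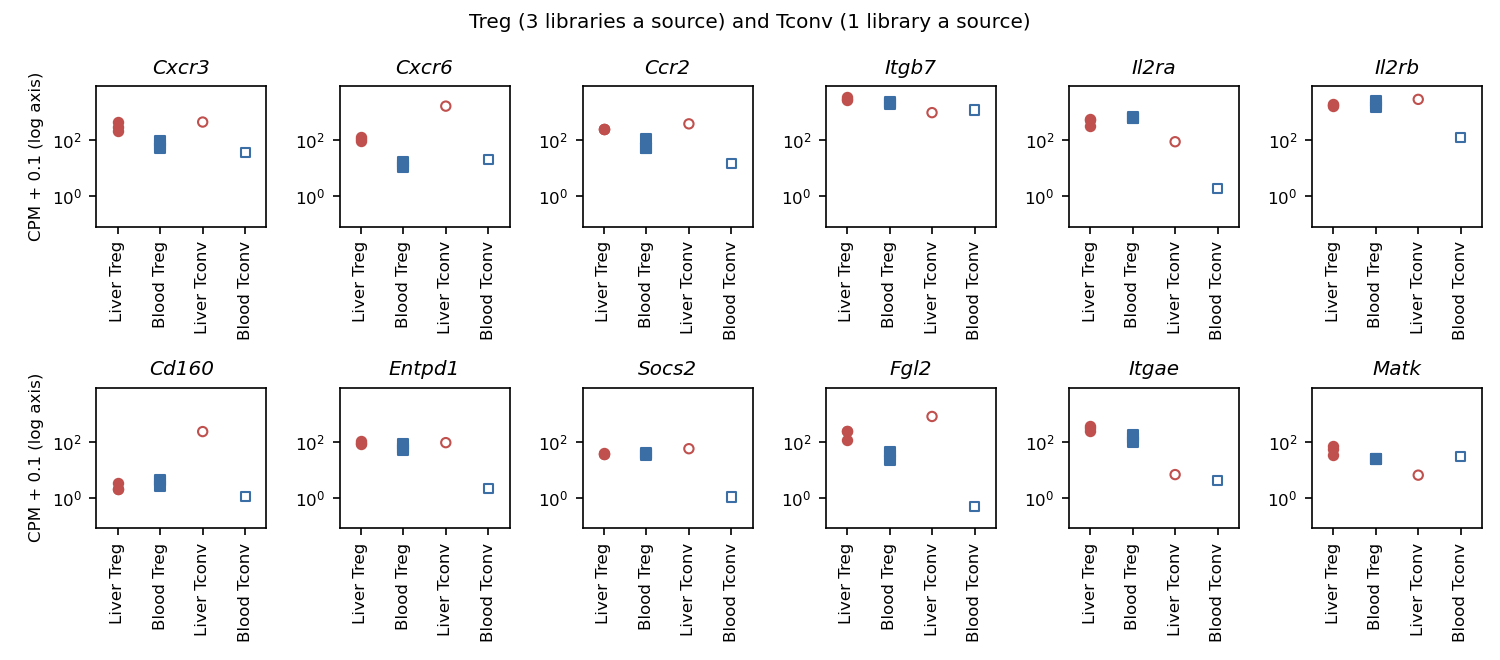
CPM + 0.1 on a log axis of 12 genes in liver Treg and blood Treg (3 libraries each, filled) and in liver Tconv and blood Tconv (1 library each, open). Cxcr3, Cxcr6 and Ccr2 are higher in liver in both cell types, while Il2ra, Il2rb, Cd160, Entpd1 and Socs2 are far apart between the Tconv libraries and much less so between the Treg means.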

How the data were processed

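The deposited table holds raw counts per gene in 40 libraries, made by the authors with a QuantSeq 3′ kit, per the labels' protocols. Per the submitters' processing notes the tools were FastQC, Trim Galore, STAR on mm10, featureCounts, MultiQC, DESeq2 and DESeq; versions, annotation release and use of strand are not given in the sources used here, so overlapping antisense genes cannot be told apart. Coordinates are those of the deposited table. Symbols came from a table of gene names, which named 55154 of 55421 identifiers. The members, gene lists and tests were chosen with earlier results of these data known.

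Tests of the counts used edgeR 4.0.16 under R 4.3.3 (filterByExpr, TMM, robust quasi-likelihood F test, Benjamini-Hochberg, threshold 0.05) in 1 fit of 30 Treg libraries with a mean per source; the 6-library fit, DESeq2 1.42.0 and limma 3.58.1 voom were alternatives. The difference between Treg and Tconv was fitted over 40 libraries. CPM used the library total times its TMM factor. Folds against 0 counts used 3 counts over the group, the 95% limit for a count of 0, which covers counting error only. No set test was run. A few genes that passed a test or belong to a list are counted but not reported here by name. Scripts were tested on simulated data. Replicate pairs differed by 24.4 to 112 times counting variance (chi-square per degree of freedom), so none was merged. Other alternatives were other scaling, filters, removal of other cells' genes and leaving out each library.

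Named were up to 15 called genes with the smallest p and a log2 fold change of 1 or more either way, leaving out predicted genes, receptor segments and other cells' genes; up to 5 members per list with the smallest p; up to 4 per list of other cells with the highest liver CPM; the 5 with the smallest p each way in the Treg and Tconv comparison; and the cell markers. The remaining called genes and the names marked so in the text were added after their values were seen. Python 3.11.15 with scipy 1.17.1 and matplotlib 3.10.9 made the exact tests and figures.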

Additional observations from a re-analysis of the deposited data

Results flagged for a closer look

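An edgeR fit called 38 genes for a liver minus blood difference that was not the same in Treg and Tconv, with 1 Tconv library per source and therefore no replicate check on the Tconv side. More negative in Treg were Il2ra (-6.12 on the log2 scale), Il2rb (-4.68), Cd160 (-8.51), Entpd1 (-5.02) and Socs2 (-5.90). More positive in Treg were Zfp963 (10.16), Rundc3a (10.15), Cyp4f13 (2.73), Matk (3.40) and Dus3l (2.07). Zfp963 had 4.52 CPM in liver Treg and 6.36 CPM in blood Treg, and 0 CPM in liver Tconv and 9.30 CPM in blood Tconv; Rundc3a had 8.42 and 6.93 CPM in the same 2 Treg groups and 0 and 5.40 CPM in the Tconv, so both values rest on a single library without a count. Groups of 3 libraries were not searched for libraries apart from the rest.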

How the results depend on the processing

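No paired analysis was possible because liver and blood Treg share only 1 replicate number. For liver against blood Treg, calls (in all, higher, lower) were 267, 223 and 44 in DESeq2, 612, 475 and 137 in DESeq2 on the 6 libraries alone, 382, 315 and 67 in limma-voom on those 6, 428, 315 and 113 in limma-voom with quality weights and 184, 160 and 24 in edgeR on those 6. The fits of DESeq2 and limma-voom on the 6 libraries were chosen after seeing the data, and DESeq2 on the 6 made more false calls on simulated data than edgeR or limma-voom on the 6. Without a filter on low counts 2 genes were lower. Leaving out 1 library gave 1 to 25 calls, 1 to 24 higher and 0 to 1 lower. Liver against spleen gave 812, 361 and 451 in DESeq2. The Treg and Tconv difference gave 317, 148 and 169 in limma-voom, 5 higher without a filter and 5 to 8 higher with a library left out. The cause of these changes was not tested, beyond fewer samples where libraries were left out.

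In the 6-library fit higher calls came to 6 of 25 Treg signature, 8 of 23 chemokine receptor and 5 of 26 adhesion genes. They also held 6 of 25 residency, 14 of 31 effector, 10 of 24 Th1 and cytotoxic and 7 of 32 S100 genes. Further ones were 3 of 32 early response, 1 of 53 interferon, 5 of 37 cell cycle and 2 of 16 glycolysis genes. The rest were 5 of 24 checkpoint, 1 of 22 TGF-beta and 23 of 32 hepatocyte genes. Lower ones came to 1 of 32 early response, 4 of 9 erythroid and 8 of 10 platelet genes. Over all genes tested in that fit, 1.21% rose and 0.182% fell. With 1 library left out higher calls ran 0 to 1 (Treg signature, adhesion, residency), 0 to 2 (Th1, checkpoint), 0 to 3 (chemokine), 0 to 4 (cell cycle), 0 to 5 (effector) and 0 to 0 (early response, hepatocyte). Medians then ran from 0.38 to 0.66 (Treg signature), 0.24 to 0.60 (residency), 1.22 to 1.80 (effector), 1.01 to 1.97 (Th1), 0.49 to 0.71 (early response) and -5.34 to -2.66 (erythroid). Over the 6 libraries the medians were 1.28 (Th1) and 9.41 (hepatocyte). The stellate difference of -0.00692 percentage points was 0.0002003 without Ecm1. With 1 library left out Foxp3 ran from -0.19 to 0.0803 and Ctla4 from -0.17 to 0.0138. DESeq2 size factors gave the same 19 genes and the filter at 1 CPM 23.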
